A study of Mus musculus with 7 samples.

Results

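Transcript levels of 9 genes of the transforming growth factor beta (TGF-beta) superfamily were read in mouse ventricle: the ligands Tgfb1, Tgfb2 and Tgfb3, the receptors Tgfbr1, Tgfbr2 and Tgfbr3, the activin subunit gene Inhba, the distant ligand Gdf15 and the intracellular inhibitor Smad7. The 9 genes were given as a list of names that applies no threshold to their values, though the list was drawn up with earlier results of these data known, and each matched exactly 1 of the 23420 gene rows of the table. All 9 were among the 15258 genes tested, so none was lost to the filter on low values. Bulk RNA sequencing had been performed on 7 hearts, in a comparison of mice that model myocarditis from immune checkpoint inhibitors (ICI) with mice described as unaffected. The 3 ICI-myocarditis mice were Ctla4+/-;Pdcd1-/- and the 4 control mice were Ctla4+/+;Pdcd1-/-, so loss of Pdcd1, which encodes PD-1, was shared by both groups and no wild-type heart was among the libraries. All animals were 3 to 6 weeks old and none was treated. The tissue label reads whole mouse heart, whereas the protocol describes flash-frozen ventricle. The design text counts mice, and the labels name no sex, litter or collection day, so p-values measure only the spread among these 7 libraries. Values are given as mean ± SD (n = 4 controls, n = 3 ICI-myocarditis).

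TGF-beta ligands are secreted in a latent form, held by a propeptide and by latent TGF-beta binding proteins in the matrix, and are released by integrins, proteases and thrombospondin. The active ligand brings together the type II receptor (Tgfbr2) and the type I receptor (Tgfbr1), which phosphorylates SMAD2 and SMAD3, while betaglycan (Tgfbr3) presents ligand, TGF-beta 2 above all, and activins signal to the same SMADs through their own receptors. In the heart the pathway is known for turning fibroblasts into matrix-producing cells and for restraining T cells and macrophages.

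The libraries held between 20931730 and 39037176 reads assigned to genes, with a mean of 27515376 ± 5002905 (SD, n = 4) in controls and 34041745 ± 5625247 (SD, n = 3) in ICI-myocarditis, and the totals overlapped (exact two-sided permutation p = 0.171). In its lowest library Gdf15 had 15 reads and Inhba 31, and each of the other 7 genes had 297 or more. The targeted genes do not check the labels, because the position of the deleted part among the reads of a gene is unknown here. Pdcd1 stood at 9.07, 244, 3.35 and 2.50 normalized counts in controls 1 to 4 and at 1481, 1096 and 1340 in ICI-myocarditis 1 to 3. Ctla4 stood at 29.2, 113, 69.2 and 41.3 in controls and at 282, 251 and 373 in ICI-myocarditis. Control 2 thus stood above the other controls in both genes, and it also had the highest T cell marker sum of the controls; without it the same 4 of the 9 genes described below were called. Heart muscle markers were abundant in every library, led by Ttn and Myh6, with log2 differences of -0.63 and -0.92 that did not pass (limma adjusted p = 0.407 and 0.173). All 10 heart muscle markers had log2 values below 0, with a median of -0.71. Of these 10 limma called 0, with 2 lower at an unadjusted p under 0.05, beside 11.7% of all genes tested called higher and 4.00% lower. For the same markers edgeR called 0. DESeq2, which called 3441 genes in all against 2397 by limma, called 3 of them as lower. Of 8 markers of skeletal muscle, fat and thymus, 7 were too low to be tested, and the remaining one, Acta1, is also a heart gene (log2 difference -0.09, limma adjusted p = 0.917). Cfd, the adipocyte gene adipsin, averaged 27.0 normalized counts in controls because of 92.7 in control 3.

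Of the 9 genes, 4 were higher in ICI-myocarditis and 0 were lower at a limma adjusted p under 0.05, the threshold used throughout for a call. None was lower at an unadjusted p under 0.05 either, nor called lower by edgeR or DESeq2. The 4 genes were Gdf15, Tgfb2, Tgfbr1 and Tgfbr2. Among all genes tested 15.7% were called, 11.7% as higher and 4.00% as lower. The same 4 genes were the ones whose 3 ICI-myocarditis libraries all lay above all 4 controls, a pattern seen in 17.3% of genes tested. The median log2 fold change was 0.87 over the 9 genes and -0.02 over all genes tested, and 8 of the 9 values were above 0. Of the 9 genes, 5 had an adjusted p under 0.05 in the authors' deposited table, these 4 and Tgfb1, where 20.2% of the genes with an adjusted p passed. Over all genes limma called 2397. That total was 1605, 1396 and 986 without ICI-myocarditis 1, 2 and 3, and 1508, 3340, 1298 and 2092 without controls 1 to 4. Counts of called genes without 1 library, given below, stand beside these totals. Normalized counts here are read counts divided by a size factor per library, and fold changes are on the log2(normalized count + 1) scale. In bulk tissue, more transcript per cell and more cells of a type that makes it cannot be told apart.

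**Figure D1:**
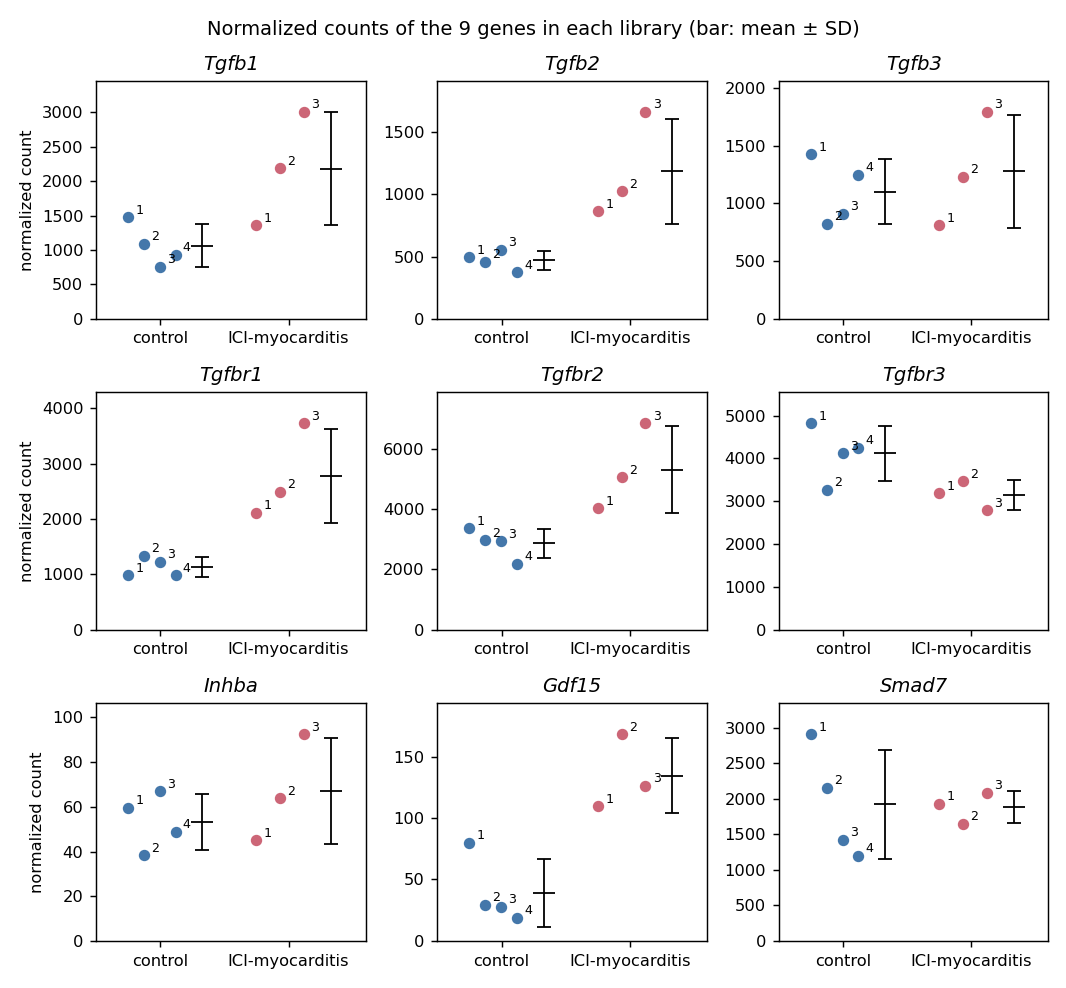
Normalized counts (y axis, linear from 0) of the 9 genes in the 4 control (blue) and 3 ICI-myocarditis (red) libraries, numbered by replicate; black bars give the mean ± SD of each group. For Tgfb2, Tgfbr1, Tgfbr2 and Gdf15 every red point lies above every blue point, and in the other 5 panels the groups overlap.

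The ligands differed in how far apart the groups lay. Tgfb2 (chr1:186622792-186705989, minus strand; all gene positions are GENCODE M21 on GRCm38), the isoform with the strongest need of betaglycan, stood at 493, 459, 552 and 372 normalized counts in controls 1 to 4 and at 865, 1025 and 1663 in ICI-myocarditis 1 to 3. The lowest ICI-myocarditis heart thus exceeded the highest control, and ICI-myocarditis 3 was set well above the other ICI-myocarditis hearts. Group means were 469 ± 75.3 (SD, n = 4) and 1184 ± 422 (SD, n = 3), a fitted 2.45-fold increase (log2 1.29, SE 0.257, 95% confidence interval 0.71 to 1.87, limma adjusted p = 0.0107). The increase of Tgfb2 passed under all 17 alternative analyses, with log2 values from 1.02 to 1.49.

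Because Tgfb2 was the TGF-beta isoform called by limma, its promoter is shown for reference, from 250 bases before to 50 after the start site (chr1:186705940-186706239, minus strand, RefSeq on GRCm38.p6). Capitals mark matches, on either strand, to CAGAC, a box bound by SMAD3, and to an NF-kappaB-type pattern of GGG, any 5 bases and CC.
Tgfb2 promoter: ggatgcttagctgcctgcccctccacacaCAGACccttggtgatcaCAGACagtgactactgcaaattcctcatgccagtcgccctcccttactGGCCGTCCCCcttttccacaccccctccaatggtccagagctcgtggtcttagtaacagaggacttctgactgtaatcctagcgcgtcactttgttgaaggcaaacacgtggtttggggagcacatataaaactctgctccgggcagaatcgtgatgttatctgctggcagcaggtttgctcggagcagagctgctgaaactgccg
CAGAC occurred at 2 places, starting at -221 and -204 from the start site, and the NF-kappaB-type pattern at -156. These short patterns are common: 49.6% of 32851 promoter windows of the same length held CAGAC and 50.8% held the NF-kappaB-type pattern. The palindromic SMAD element GTCTAGAC (0.213% of windows), the AP-1 pattern TGANTCA (7.81%) and the ATF4 pattern TGATGNAA (3.97%) had no match here.

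Tgfb1 (chr7:25687002-25705077, plus strand), the isoform made by leukocytes and platelets as well as by stromal cells, stood at 1476, 1089, 754 and 932 normalized counts in controls and at 1357, 2188 and 3006 in ICI-myocarditis. ICI-myocarditis 1 lay below control 1, so the groups overlapped, while the other ICI-myocarditis hearts were above every control. Means were 1063 ± 308 (SD, n = 4) and 2184 ± 825 (SD, n = 3), with a log2 difference of 1.01 (SE 0.312, 95% confidence interval 0.31 to 1.71) that narrowly missed the threshold (limma adjusted p = 0.0585). Tgfb1 passed in 3 of 17 alternatives, among them DESeq2 (adjusted p = 0.0162) and the fit without ICI-myocarditis 1 (limma adjusted p = 0.0299). The authors' deposited table gives Tgfb1 a log2 fold change of 1.04 and an adjusted p of 0.0182.

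Tgfb3 (chr12:86056745-86079041, minus strand), expressed in heart mainly by stromal and vascular cells, stood at 1425, 822, 908 and 1249 normalized counts in controls and at 808, 1228 and 1791 in ICI-myocarditis. The groups overlapped widely, with the lowest of the 7 values in ICI-myocarditis 1 and the highest in ICI-myocarditis 3. The log2 difference of 0.17 (SE 0.303) had a 95% confidence interval of -0.51 to 0.86, which spans changes from 0.703-fold to 1.81-fold (limma adjusted p = 0.752). Its sign turned when ICI-myocarditis 3 was left out (-0.11).

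Both signalling receptors were higher in ICI-myocarditis. Tgfbr1 (chr4:47353222-47414931, plus strand), the type I receptor kinase that phosphorylates SMADs, stood at 983, 1335, 1225 and 981 normalized counts in controls and at 2110, 2488 and 3731 in ICI-myocarditis. Even the lowest ICI-myocarditis heart was well above the highest control. Means were 1131 ± 178 (SD, n = 4) and 2776 ± 848 (SD, n = 3), a fitted 2.40-fold increase (log2 1.27, SE 0.236, 95% confidence interval 0.73 to 1.80, limma adjusted p = 0.00869). Like Tgfb2, Tgfbr1 passed under all 17 alternatives, with log2 values from 1.03 to 1.44.

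Tgfbr2 (chr9:116084293-116175360, minus strand), the ligand-binding type II receptor kinase, stood at 3361, 2964, 2931 and 2193 normalized counts in controls and at 4025, 5056 and 6848 in ICI-myocarditis. The groups did not overlap, but control 1 came close to ICI-myocarditis 1. Means were 2863 ± 487 (SD, n = 4) and 5310 ± 1428 (SD, n = 3), a fitted 1.83-fold increase (log2 0.87, SE 0.245, 95% confidence interval 0.32 to 1.43, limma adjusted p = 0.0412). The call for Tgfbr2 held in 10 of 17 alternatives. It was lost on leaving out any of control 1, control 3, control 4, ICI-myocarditis 2 or ICI-myocarditis 3 (limma adjusted p between 0.0627 and 0.176).

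The promoters of the receptor pair are shown in the same way, since both genes rose; for Tgfbr1, with 2 promoters in the table, the one at the annotated gene start was taken. The Tgfbr1 window (chr4:47352972-47353271, plus strand) is 74.7% G and C and held no match to any of the 5 patterns. The Tgfbr2 window (chr9:116175314-116175613, minus strand) held CAGAC at -160 and the NF-kappaB-type pattern starting at 7.
Tgfbr1 promoter: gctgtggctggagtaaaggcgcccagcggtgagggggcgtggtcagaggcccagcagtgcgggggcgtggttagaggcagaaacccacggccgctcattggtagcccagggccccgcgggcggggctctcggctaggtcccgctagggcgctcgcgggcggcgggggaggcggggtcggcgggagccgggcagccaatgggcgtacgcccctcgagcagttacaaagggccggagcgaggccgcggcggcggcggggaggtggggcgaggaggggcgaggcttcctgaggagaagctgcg
Tgfbr2 promoter: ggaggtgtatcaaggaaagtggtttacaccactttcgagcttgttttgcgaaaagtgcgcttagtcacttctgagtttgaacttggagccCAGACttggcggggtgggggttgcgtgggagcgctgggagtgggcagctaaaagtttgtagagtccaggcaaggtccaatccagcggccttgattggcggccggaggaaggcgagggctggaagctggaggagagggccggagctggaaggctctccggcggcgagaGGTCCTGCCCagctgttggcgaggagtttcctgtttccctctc
A match is a description of the letters only, and the absence of one says nothing about the factors.

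Tgfbr3 (chr5:107106570-107289629, minus strand), which encodes the co-receptor betaglycan, was the only one of the 9 with a value below 0. It stood at 4823, 3271, 4123 and 4251 normalized counts in controls and at 3186, 3465 and 2788 in ICI-myocarditis. Control 2 fell among the ICI-myocarditis hearts, and the other controls lay above them. The log2 difference was -0.38 (SE 0.206, 95% confidence interval -0.84 to 0.08) and did not pass (limma adjusted p = 0.253), nor in any of the 17 alternatives (adjusted p from 0.115 to 0.585).

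Gdf15 (chr8:70629393-70632456, minus strand), a stress-induced cytokine that acts through a receptor in the hindbrain, showed the largest fitted fold among the 9, and per kb only Inhba was lower. It stood at 79.7, 29.6, 27.9 and 18.8 normalized counts in controls and at 109, 168 and 126 in ICI-myocarditis. All ICI-myocarditis hearts exceeded all controls, and control 1 was well above the other controls. Means were 39.0 ± 27.5 (SD, n = 4) and 135 ± 30.2 (SD, n = 3), a fitted 3.87-fold increase with a wide interval of 1.84-fold to 8.13-fold (log2 1.95, SE 0.475, limma adjusted p = 0.0242). The call held in 12 of 17 alternatives and was lost without control 3 or without any of the 3 ICI-myocarditis libraries (limma adjusted p between 0.0528 and 0.0928).

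The Gdf15 promoter window (chr8:70632407-70632706, minus strand) is shown because stress-response genes, including ATF4 targets, were read beside it; of 2 in the table it is the one at the annotated gene start.
Gdf15 promoter: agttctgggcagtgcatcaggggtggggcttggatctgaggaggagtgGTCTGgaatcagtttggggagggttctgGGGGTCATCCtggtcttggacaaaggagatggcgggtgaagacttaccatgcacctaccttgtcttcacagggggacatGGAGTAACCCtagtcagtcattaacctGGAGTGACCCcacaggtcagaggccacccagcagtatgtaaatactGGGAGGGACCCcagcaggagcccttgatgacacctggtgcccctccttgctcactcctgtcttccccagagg
It held 5 matches to the NF-kappaB-type pattern, 2 of which overlap at -22 and -21, and 1 to CAGAC, and no match to the ATF4 pattern. Of 15 tested genes of the integrated stress response and p53 pathways 5 were higher and 0 lower by limma, beside 11.7% and 4.00% of all genes tested. Their median log2 fold change was 0.49. None was lower at an unadjusted p under 0.05 or by edgeR or DESeq2. Ddit3, which encodes the stress factor CHOP, rose from 367 ± 89.1 to 851 ± 203 normalized counts (log2 1.22, limma adjusted p = 0.0120). Asns, encoding asparagine synthetase and an ATF4 target, rose by 1.29 on the log2 scale (limma adjusted p = 0.0186), and Phlda3, a p53 target, by 0.84 (limma adjusted p = 0.0147). Atf4 itself, chosen after its value was seen, had a log2 difference of 0.39 (limma adjusted p = 0.228), and the other called genes were Atf3 and Sesn2. Of the 15 log2 values 12 were above 0, and those below 0 were Trib3 (-0.07), Mdm2 (-0.13) and Ccng1 (-0.74), none called. The 5 called fell to 1 without ICI-myocarditis 1 or 3 and to 3 without control 3 or ICI-myocarditis 2. Gfral, which encodes the GDF15 receptor, was listed at 0 in all 7 libraries.

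Inhba (chr13:16011851-16031621, plus strand), which encodes the beta A subunit of activin A, was the scarcest of the 9 per kb. It stood at 59.5, 38.2, 67.0 and 48.8 normalized counts in controls and at 45.0, 63.8 and 92.5 in ICI-myocarditis. The groups overlapped, with only ICI-myocarditis 3 above all controls. The log2 difference of 0.29 (SE 0.360) had a 95% confidence interval of -0.52 to 1.10 (limma adjusted p = 0.638), and it was 0.04 without ICI-myocarditis 3. Its sister gene Inhbb, encoding the beta B subunit, rose from 110 ± 28.1 (SD, n = 4) to 235 ± 70.9 (SD, n = 3) normalized counts (log2 1.08, SE 0.303, limma adjusted p = 0.0412, called in 11 of 17 alternatives). Whether the changes of Inhba and Inhbb differed was not tested.

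Smad7 (chr18:75367529-75395935, plus strand), which encodes the inhibitory SMAD that blocks the type I receptor and is itself a TGF-beta target, stood at 2905, 2149, 1418 and 1200 normalized counts in controls and at 1931, 1643 and 2081 in ICI-myocarditis. The controls spread more widely than the ICI-myocarditis hearts and enclosed them. The log2 difference was 0.06 (SE 0.302), with a 95% confidence interval of -0.62 to 0.73 (limma adjusted p = 0.927), and its sign turned under 6 of 17 alternatives.

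**Figure D2:**
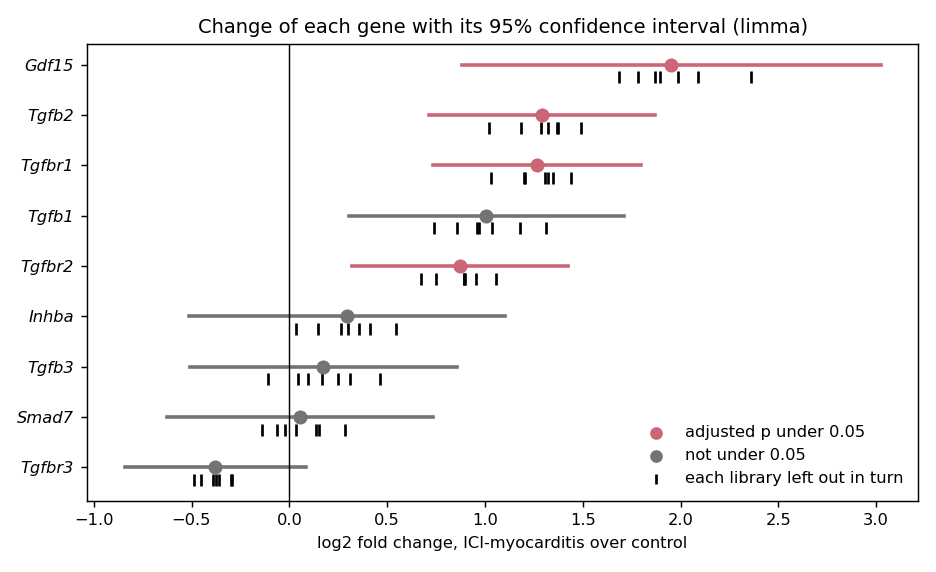
Log2 fold change of each of the 9 genes, ICI-myocarditis over control (x axis), with its 95% confidence interval from limma; red marks an adjusted p under 0.05 and black ticks give the value with each of the 7 libraries left out in turn. The intervals of Gdf15, Tgfb2, Tgfbr1, Tgfb1 and Tgfbr2 lie above 0, the last 2 with lower bounds of 0.31 and 0.32.

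Levels were compared between genes only per length, as normalized counts per kb of annotated exon (GENCODE M21, GRCm38). In controls the order was Tgfbr3 (629 ± 97.9), Smad7 (424 ± 171), Tgfbr2 (349.6 ± 59.5), Tgfb3 (325 ± 83.9), Tgfb1 (211 ± 61.0), Tgfbr1 (173 ± 27.2), Tgfb2 (81.0 ± 13.0), Gdf15 (21.1 ± 14.9) and Inhba (8.35 ± 1.96). From Tgfbr3 down to Tgfbr1 each gene overlapped its neighbour in range, whereas Tgfb2 lay apart from its neighbours on both sides, and the lowest Gdf15 value lay just below the highest of Inhba. In ICI-myocarditis Tgfbr2 led (649 ± 174), followed by Tgfbr3 (481 ± 52.0), Tgfb1 (433 ± 164), Tgfbr1 (425 ± 129.8), Smad7 (417 ± 49.2), Tgfb3 (377 ± 146), Tgfb2 (204 ± 72.9), Gdf15 (72.7 ± 16.3) and Inhba (10.5 ± 3.74). From Tgfbr2 down to Tgfb2 each gene again overlapped its neighbour in range over the libraries, and Gdf15 and Inhba lay apart. Within every ICI-myocarditis library, however, Tgfb1 exceeded Tgfb3, Tgfb3 exceeded Tgfb2, and Tgfbr2 exceeded Tgfbr3 per kb. Exon lengths come from that annotation and not from the authors' counting.

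The make-up of the ligand and receptor transcripts is given as shares within each library, which were not tested themselves. Tgfb3 made up 52.7%, 45.1%, 52.3% and 59.7% of the 3 ligand transcripts per kb in controls 1 to 4 and 36.4%, 37.3% and 37.5% in ICI-myocarditis 1 to 3, with no overlap. Tgfb2 made up 13.6% ± 3.87 (SD, n = 4) in controls and 20.4% ± 2.27 (SD, n = 3) in ICI-myocarditis, with control 3 (18.6%) above ICI-myocarditis 2 (18.2%). Tgfb1 made up 34.0% ± 5.33 in controls and 42.6% ± 1.84 in ICI-myocarditis. Its groups narrowly did not overlap, with 40.1% in control 2 and 40.9% in ICI-myocarditis 1. Betaglycan was the main receptor transcript in controls, at 56.8%, 46.9%, 53.6% and 60.8% of the 3 receptor genes, and took 37.4%, 34.7% and 23.2% in ICI-myocarditis. Tgfbr1 took 15.2% ± 3.19 of the receptor transcripts in controls and 27.0% ± 3.62 in ICI-myocarditis.

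**Figure D3:**
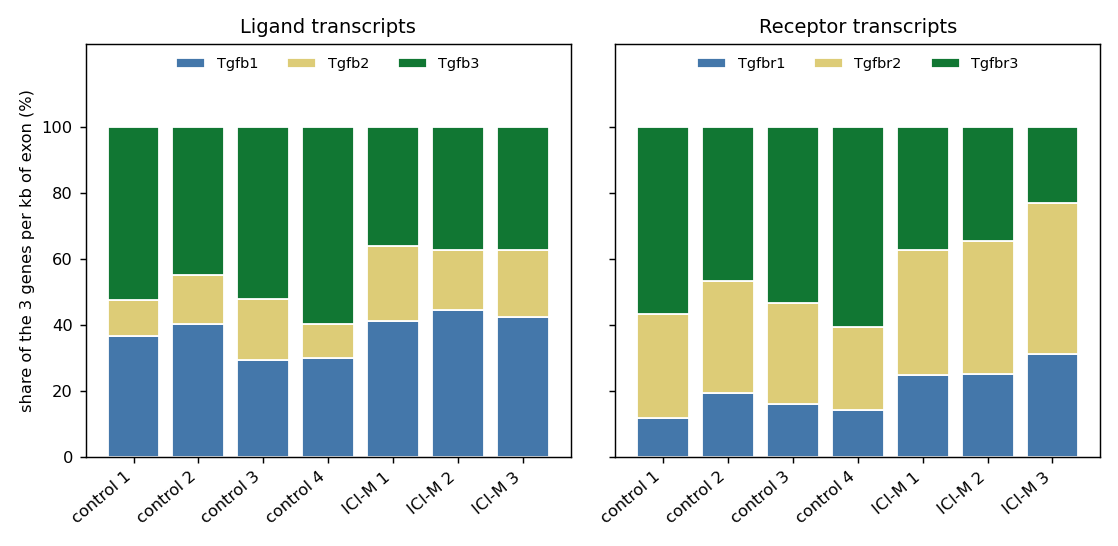
Share (y axis, percent) of each ligand gene (left) and each receptor gene (right) in the sum of the 3 per kb of exon, in each library (ICI-M stands for ICI-myocarditis). The green shares, Tgfb3 and Tgfbr3, are each smaller in every ICI-M bar than in every control bar.

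Whether 2 genes changed by different amounts was tested on the log2 ratio of their normalized counts within each library, over the 6 pairs of ligands and of receptors. The groups did not overlap for 5 of the 6 ratios. How often ratios of other gene pairs lie apart was not computed, and 4358 of 15258 single genes did so in either direction. Within each family any 2 ratios fix the remaining ratio, so these are not separate results. The ratio of Tgfbr1 to Tgfbr3 rose by 1.65 on the log2 scale, from -1.86 ± 0.442 (SD, n = 4) to -0.22 ± 0.555 (SD, n = 3), and that of Tgfbr2 to Tgfbr3 by 1.25 (both exact permutation p = 0.0286, the smallest that 35 splits allow). The ratio of Tgfb2 to Tgfb3 was higher by 1.12 and that of Tgfb1 to Tgfb3 by 0.83 (both exact permutation p = 0.0571). After adjustment over the 6 pairs 0 passed, with 0.0857 for these 4 ratios, and 2 had an unadjusted p under 0.05. With 35 splits 1 pair alone can reach an adjusted permutation p of 0.171 at best. Missing the threshold therefore does not show that the genes changed alike. The ratio of Tgfb1 to Tgfb2 differed by -0.28 with overlapping groups (exact permutation p = 0.371), and that of Tgfbr1 to Tgfbr2 by 0.39 (exact permutation p = 0.0857, adjusted 0.103).

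Genes linked to the storage and release of latent TGF-beta were read as a list of 18, all tested. Of these, 8 were higher and 1 lower (median log2 fold change 0.50), beside 11.7% and 4.00% of all genes tested. Thbs1, encoding thrombospondin-1, an activator of latent TGF-beta, stood at 752, 746, 552 and 469 normalized counts in controls and at 3432, 6653 and 11901 in ICI-myocarditis (log2 3.39, SE 0.383, limma adjusted p = 0.00251). Ltbp2, a matrix protein of the latent TGF-beta binding protein family, rose from 232 ± 63.4 to 4890 ± 4312 normalized counts (log2 4.07, SE 0.516, limma adjusted p = 0.00316), with ICI-myocarditis 3 at 9811. Ltbp1, Ltbp3 and Ltbp4 of the same family were not called, with log2 differences of -0.52, 0.47 and -0.38 (limma adjusted p = 0.152, 0.336 and 0.548). Of the integrin genes whose products activate the ligand, Itgb8 rose by 1.51 (limma adjusted p = 0.00602) and Itgav by 1.01 (limma adjusted p = 0.0170), whereas Itgb6 was lower, from 1273 ± 69.1 to 377 ± 249 normalized counts (log2 -2.01, SE 0.433, limma adjusted p = 0.0147). The integrin genes Itgb5 and Itgb1, also on the list, were not called, with log2 differences of 0.52 and -0.06 (limma adjusted p = 0.251 and 0.916). The other called genes were Fbn1, Mmp14, Emilin1 and Lrrc33, the older symbol of Nrros, which holds latent TGF-beta on macrophages. The 8 higher fell to 5 without control 3 and to 4 without ICI-myocarditis 2 or 3. Ltbp1, Ltbp3, Ltbp4, Itgav, Itgb1, Itgb5, Itgb6, Fbn1, Mmp14, Emilin1 and Lrrc33 were chosen after their values were seen.

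Of the signal transducers, 12 SMAD and cofactor genes, 1 was higher and 1 lower by limma (median -0.07), beside 11.7% and 4.00% of all genes tested. DESeq2 and limma-voom each called 1 higher and 3 lower. Over all genes DESeq2 called 3441 and limma-voom 4003, against 2397 by limma. Of these calls 62.8% and 62.1% were higher, against 74.6% by limma. Tgif1, a repressor of SMAD targets, rose from 145 ± 69.8 to 504 ± 194 normalized counts (log2 1.86, limma adjusted p = 0.0179), and Zfyve9, encoding the receptor adaptor SARA, fell by 0.75 (limma adjusted p = 0.0263). Smad9 had a log2 difference of -0.84 (limma adjusted p = 0.0749). Without ICI-myocarditis 3 or control 1 neither direction held a call, and the lower call was also lost without control 3, ICI-myocarditis 1 or ICI-myocarditis 2. Of 15 inhibitor and feedback genes other than Smad7 limma called 0 (median 0.02), with 3 higher and 1 lower at an unadjusted p under 0.05, while edgeR called 1 and DESeq2 3 as higher. By limma Skil (log2 0.70, limma adjusted p = 0.0505), Bgn (1.45, 0.0621) and Pmepa1 (1.01, 0.0907) were nearest to the threshold. Skil encodes the SMAD corepressor SnoN and Pmepa1 a membrane protein that sequesters SMADs, both TGF-beta targets. Of these 15, 2 were called without ICI-myocarditis 1 and 1 without control 2.

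Among 13 tested genes of activin and related ligands, receptors and antagonists 3 were higher and 1 lower (median -0.07). Fstl1, a secreted glycoprotein of heart stroma, rose from 6096 ± 677 to 16008 ± 3891 normalized counts (log2 1.37, SE 0.244, limma adjusted p = 0.00716). Fstl3, an activin antagonist, rose from 58.7 ± 11.9 to 173 ± 85.9 (log2 1.45, limma adjusted p = 0.0316, called in 12 of 17 alternatives). The activin antagonist Fst had a log2 difference of 2.11 that did not pass (limma adjusted p = 0.0590), and the type II activin receptor gene Acvr2b was lower by a log2 value of -0.93 (limma adjusted p = 0.0430), both chosen after their values were seen. The 3 higher genes fell to 2 without control 1, control 4 or ICI-myocarditis 2 and to 1 without control 3, ICI-myocarditis 1 or ICI-myocarditis 3, and rose to 4 without control 2. The lower call was lost without any 1 of the 7 libraries. Of 22 tested genes of the bone morphogenetic protein (BMP) branch 2 were higher and 1 lower (median -0.06). Over all genes tested limma called 11.7% higher and 4.00% lower. Gdf6, a BMP-type ligand, rose by 3.07 (limma adjusted p = 0.00536). Of the Id genes on this list, Id2 rose by 2.53 (limma adjusted p = 0.00762) and Id1 fell by 1.04 (limma adjusted p = 0.0424, called in 9 of 17 alternatives). Id3 (-0.33, limma adjusted p = 0.332) and Id4 (1.04, limma adjusted p = 0.193) did not pass, both chosen after their values were seen. Leaving out any library but control 4 ended the call of Id1.

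Genes known to be induced by TGF-beta gave the most calls of these lists. Of 25 genes other than Smad7, all tested, 13 were higher and 1, Itgb6, was lower, beside 11.7% and 4.00% of all genes tested. Their median log2 fold change was 1.36. Postn, encoding the matrix protein periostin, rose in every ICI-myocarditis heart, from 2233 ± 504 to 17792 ± 6301 normalized counts (log2 2.96, SE 0.284, limma adjusted p = 0.00251). Timp1, an inhibitor of metalloproteinases, rose by 4.87 (limma adjusted p = 0.00251), and Ltbp2, also on the latency list, had the third lowest p. The other higher genes were Ctgf, Tgfbi, Col1a1, Col1a2, Col3a1, Fn1, Lox, Loxl2, Cthrc1 and Junb, many of them matrix genes. The contractile genes Acta2 (-0.64, limma adjusted p = 0.338) and Tagln (-0.67, limma adjusted p = 0.0594) did not pass, both chosen after their values were seen. The 13 higher fell to 9 without ICI-myocarditis 2 or 3 and rose to 15 without control 2. All genes called went from 2397 to 1396, 986 and 3340 without ICI-myocarditis 2, ICI-myocarditis 3 and control 2. These genes respond to other signals too, and whether TGF-beta signalling moved them was not tested.

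**Figure D4:**
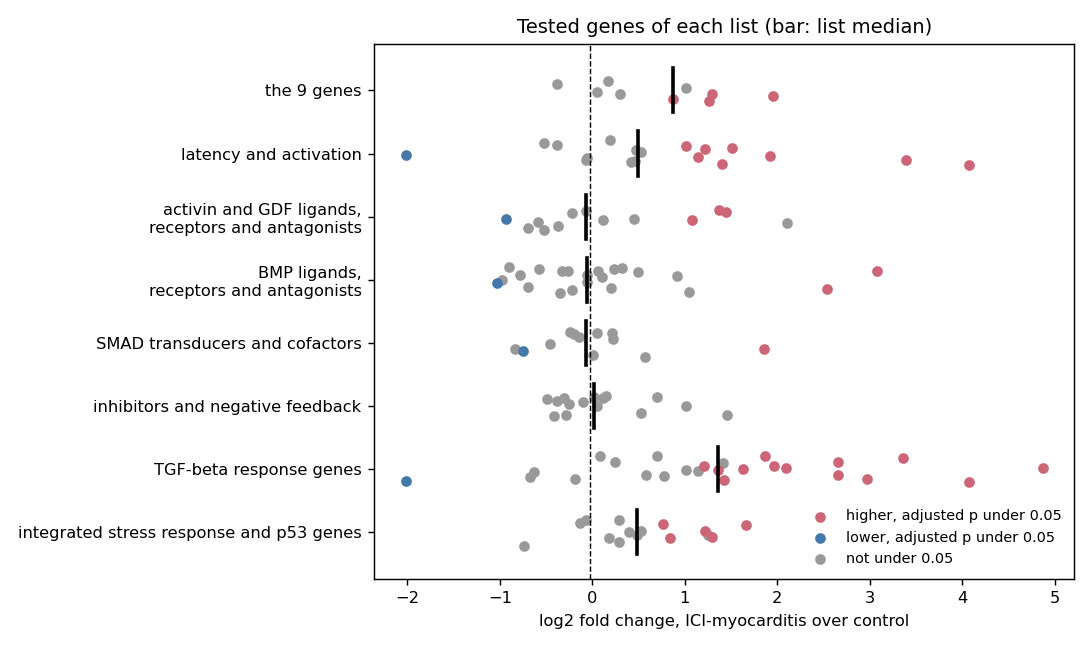
Log2 fold change, ICI-myocarditis over control (x axis), of every tested gene of the 9 genes and of each pathway list (rows); red and blue points have an adjusted p under 0.05, black bars are list medians and the dashed line is the median of all genes tested, -0.02. The TGF-beta response list has the highest median, 1.36, and the SMAD, inhibitor, activin and BMP lists have medians between -0.07 and 0.02.

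Markers of the cell types that make or receive TGF-beta moved with the groups. Over all genes tested limma called 11.7% higher and 4.00% lower. DESeq2 called 3441 genes in all against 2397 by limma, and 62.8% of its calls were higher against 74.6%. T cell markers were called higher for 9 of 10 genes, with a summed level of 193 to 1947 normalized counts in controls, the highest in control 2, and 7642 to 11718 in ICI-myocarditis. Macrophage and monocyte markers were higher for 9 of 10, summing to between 14158 and 19441 in controls and between 52621 and 78833 in ICI-myocarditis. Fibroblast markers were higher for 3 of 10, Col1a1, Col1a2 and Mfap5, of which the collagens are also on the response list. Of the 10 log2 values 9 were above 0, with a median of 0.59. Pdgfra differed by 0.27 (limma adjusted p = 0.574), and Gsn, the only value below 0, by -0.67 (limma adjusted p = 0.165). The 3 called fibroblast markers fell to 1 without control 3, ICI-myocarditis 2 or ICI-myocarditis 3. Endothelial markers were lower for 5 of 10, with sums of 35061 to 86553 in controls and 23430.0 to 33259 in ICI-myocarditis; the 5 became 2 without control 1, control 3, ICI-myocarditis 1 or ICI-myocarditis 3, 3 without ICI-myocarditis 2 and 10 without control 4. Mural cell markers were lower for 4 of 8, with sums of 56922 to 73868 and 27409 to 33694, and the 4 fell to 1 without control 3 or ICI-myocarditis 3 and to 2 without control 1 or ICI-myocarditis 2. Platelet markers, from cells rich in TGF-beta 1 protein, gave 0 calls of 5 by limma (2 lower at an unadjusted p under 0.05, 0 called by edgeR and 1 by DESeq2), with sums of 502 to 998 in controls and 322 to 504 in ICI-myocarditis. B cell markers were higher for 2 of 5 and neutrophil markers for 2 of 4, and neither list kept a call without ICI-myocarditis 3. No marker of the lists in this paragraph was at 0 in every library. The part of these shifts in the levels of the 9 genes was not tested.

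Most of the 9 genes were highest in the same ICI-myocarditis heart. ICI-myocarditis 3 was the highest of the 3 for 7 of the 9 genes, with Gdf15 and Tgfbr3 highest in ICI-myocarditis 2, and ICI-myocarditis 1 was the lowest for 7, all but Tgfbr3 and Smad7. ICI-myocarditis 3 was likewise the highest for 19 of the 25 response genes and for 75.4% of all genes called higher, against 41.0% of all genes tested. The genes whose levels ran most like each member were sought by Pearson's r of log2 values over the 7 libraries, among genes with a mean of at least 100 normalized counts, as a description. They were S1pr2, Dkk3 and Sox9 for Tgfb2 (r from 0.991 to 0.996), C1s, C3 and Rab8b for Tgfbr1 (0.995 to 0.997), Chst12, Fn1 and Osgin1 for Tgfbr2 (0.993 to 0.998) and Gpr133, Cyb561d1 and Col1a1 for Gdf15 (0.965 to 0.977). For Tgfb1 they were Sdc3, Rcc2 and Ube2q1 (0.989 to 0.992), and for Tgfbr3 Alpk2, Chordc1 and Chn1 (0.978 to 0.986). For Tgfb3 they were Strn, Sft2d2 and Eif2c2 (0.972 to 0.973), for Inhba Scyl2, Cbll1 and Pdgfra (0.953 to 0.966), and for Smad7 Smad1, Slc4a8 and Cebpg (0.963 to 0.974). The search covered 11421 or 11422 genes over 7 libraries that fall in 2 groups, and no test was made of these likenesses.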

How the data were processed

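Total RNA of 7 mouse ventricles was sequenced from stranded libraries as 150-base pairs, per the labels' protocols. The submitters' processing notes name STAR 2.7.3 and GRCm38 (mm10); the counting program, annotation and use of strand are not given in the sources used here. The authors deposited, per library, a signal: gene read counts divided by 1 size factor. Every value was a whole multiple of its library's step within 0.01, so 100% came out as whole reads, though the step of control 1 (1.01) is too near 1 to be a sign by itself. The deposited table also holds the authors' mean signal, log2 fold change, score and p-value columns, whose header names are those DESeq2 writes. Rows whose names had become dates numbered 27 (0.143% of reads) and stayed in the fit.

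The 15258 genes that reached 10 normalized counts in 3 or more libraries were fitted in R 4.3.3. The fit used limma 3.58.1, with trend and robust variance, and the Benjamini-Hochberg method, on the log2 values after adding a pseudocount of 1. Ratios were compared by exact two-sided permutation over 35 splits. Alternatives were pseudocounts of 0.5 and 5, no filter, no trend, edgeR 4.0.16 and DESeq2 1.42.0 and limma-voom on recovered reads, other scalings, a replicate block and each library left out. The tests were checked on simulated counts, where limma and edgeR missed most of the smaller changes, and DESeq2 found more of them with a larger share of wrong calls. Far fewer genes were changed there than were called in the data. The share of wrong calls depends on that number and does not carry over to these data. The 9 genes and the lists were chosen with earlier results of these data known. Named genes are the 9, Ctla4 and Pdcd1, the 3 lowest p-values of each pathway list, markers of highest mean, and the 3 genes most like each member; other names are those of all called genes of a list, or were picked with their values known. Of the list genes, Adgre1, Nrros and Tgfbr3l were matched through RefSeq synonyms and Ly6g was not matched. Promoters come from RefSeq (GRCm38.p6); all 4 called genes matched. Protein sequences were not used here.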

Additional observations from a re-analysis of the deposited data

Results flagged for a closer look

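In the 4 controls, 49 results were checked for a library whose gap to its nearest neighbour took most of the group's range on the log2 scale, and chance flags about 1 in 20 of such groups. None of the 9 genes was among the 2 flagged. Ltbp2 was low in control 4, at 138 normalized counts, with a gap of 0.893 of the range. Asns was also low in control 4, at 65.1 normalized counts, with a gap of 0.889 of the range.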

How the results depend on the processing

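Over 17 alternatives the 9 genes kept direction and side of the threshold in 131 of 153 results; 12 lost a call, 3 gained one (Tgfb1) and 7 turned sign. The number of the 9 called ranged from 2 to 4 on leaving out 1 library, was 3 without trend and robust variance and 5 under DESeq2 and limma-voom. Deviations of same-numbered libraries from their group means correlated at -0.271, -0.206 and -0.0784. These values cannot show whether the animals were paired, and the labels do not say. With the replicate block, which gives control 4 no weight in the fold changes, 2 of the 9 (Tgfb2 and Tgfbr1) and 1780 of all genes were called. All genes called numbered 986 to 3340 on leaving out 1 library and 4003 under limma-voom with quality weights. Library-size scaling shifted the median of all genes by 0.16, and the same 4 genes were called. DESeq2 and limma-voom lowered the share of calls that were higher from 74.6% to 62.8% and 62.1%. Smad7 turned sign under edgeR (-0.043), DESeq2 (-0.026) and the block (-0.14), and ran from -0.14 to 0.28 without 1 library. Tgfb3 ran from -0.11 to 0.47 and Acta1 from -0.46 to 0.11 without 1 library, Acta1 being 0.072 under library-size scaling and 0.046 with the block. The causes were not tested. For 39 other named genes 577 of 663 results kept direction and side, 58 lost a call, 23 gained one and 5 turned sign. No ratio passed under any alternative run, and leaving out a library leaves too few splits to pass. Depth bears most on Gdf15 and Inhba, with 15 and 31 reads in their lowest libraries.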
